A study of Mus musculus with 2 samples.

Results

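Methylation of DNA was measured at single CpG cytosines in 8 mouse genes known for imprinted differentially methylated regions (DMRs) that stand alone or in small groups: Plagl1, Grb10, Impact, Peg13, Trappc9, Kcnk9, Cdh15 and Rasgrf1. The genes were taken by name, and Cdh15 is also the muscle cadherin. The cells were mouse C3H myoblasts (Sigma-Aldrich) that had fused in culture into myotubes, which are muscle fibres with many nuclei. They were transfected with control siRNA (siCon) or with an siRNA that targets H19, an imprinted non-coding transcript (siH19), and DNA was taken 48 h later. There was 1 library per group, so every test below compares 2 libraries and not 2 conditions, and no value has an error between cultures. The labels give no genotype beyond the C3H origin and name no untransfected sample. A cytosine was compared where each library held at least 5 reads and where it lay outside CCGG and TCGA, the sites cut by the MspI and TaqαI enzymes used to make the libraries. All 8 genes had such a cytosine in the body or within 1 kb of a transcript start, out of 32456 annotated genes that did. The genes and their CpG islands together held 1088 of the 1850635 cytosines compared.

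An imprinted gene is expressed from the copy of 1 parent. The mark that tells the copies apart is methylation laid down in the egg or the sperm at a germline DMR, which is kept through the waves of demethylation of the early embryo by factors that include the zinc finger protein ZFP57. In body cells such a region carries methylated DNA from 1 parent and unmethylated DNA from the other, so its level in bulk DNA lies near the middle of the scale. The deposited files held read counts and no reads, so the parental copies could not be separated here, and an intermediate level can also come from a mixture of cells.

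The members have different roles. Plagl1 encodes a zinc finger transcription factor of growth control, with a maternally methylated DMR at its promoter. Grb10 encodes an adaptor that dampens insulin and growth factor receptor signalling, and its DMR lies at an internal, brain-type promoter. Impact encodes a regulator of the kinase GCN2, with a DMR in the first intron. Peg13 is a non-coding RNA gene inside an intron of Trappc9, which encodes a subunit of a vesicle tethering complex, and the Peg13 promoter carries the germline DMR of a small cluster that also holds Kcnk9, a gene for a potassium channel of the background leak type. Cdh15 encodes M-cadherin, an adhesion molecule of muscle precursor cells, with oocyte-derived methylation late in the gene body. Rasgrf1 encodes an exchange factor for Ras and has a paternally methylated DMR upstream of its promoter.

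Fragments of 6 islands on which the results turn are shown to place the measured CpGs, for each island the one with most reads that overlaps no untranslated region. Each is the restriction fragment between neighbouring MspI or TaqαI cuts, read 5′ to 3′ on the plus strand of GRCm38, and capitals mark the CpGs that were compared.
Plagl1 island 3, chr10:13091040-13091110: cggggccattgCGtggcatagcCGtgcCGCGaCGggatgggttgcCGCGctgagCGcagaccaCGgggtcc
Grb10 island 4, chr11:12025628-12025802: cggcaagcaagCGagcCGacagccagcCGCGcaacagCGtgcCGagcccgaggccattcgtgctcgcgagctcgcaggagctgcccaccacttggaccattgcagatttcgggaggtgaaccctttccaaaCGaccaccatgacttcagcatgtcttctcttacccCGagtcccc
Peg13 island 1, chr15:72809600-72809699: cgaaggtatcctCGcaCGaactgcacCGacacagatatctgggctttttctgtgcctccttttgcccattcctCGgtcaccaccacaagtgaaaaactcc
Kcnk9 island 4, chr15:72547706-72547774: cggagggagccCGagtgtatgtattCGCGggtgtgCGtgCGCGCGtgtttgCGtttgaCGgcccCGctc
Rasgrf1 island 1, chr9:89909518-89909618: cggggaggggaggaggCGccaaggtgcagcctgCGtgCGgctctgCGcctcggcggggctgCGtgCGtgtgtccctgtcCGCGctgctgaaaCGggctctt
Cdh15 island 2, chr8:122865160-122865362: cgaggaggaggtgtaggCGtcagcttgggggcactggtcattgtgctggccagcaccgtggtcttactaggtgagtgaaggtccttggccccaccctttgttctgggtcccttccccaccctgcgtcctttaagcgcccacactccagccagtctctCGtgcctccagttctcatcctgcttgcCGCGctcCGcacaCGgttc

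The Plagl1 fragment lies in an intron, with 9 compared CpGs at a mean level of 24.1% in siCon and 21.5% in siH19. The Grb10 fragment is intronic and stood at 64.3% and 69.2%. The Peg13 fragment, in the Peg13 exon and a Trappc9 intron, stood at 41.9% and 40.1%. The Kcnk9 fragment lies before the gene and stood at 16.6% and 23.97%. The Rasgrf1 fragment, also before the gene, stood at 19.998% and 18.4%. The 6 compared CpGs of the Cdh15 fragment, which covers exon and intron sequence, stood at 94.2% and 90.9%. Levels over a region are the mean of the levels of its cytosines, with the strands kept apart, unless reads summed over the region are named.

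The libraries were alike in depth. They covered 5453019 cytosines in siCon and 5266846 in siH19, with 104999613 and 106372792 reads summed over cytosines. The compared cytosines had a median of 24 reads in each library. They differed in fragment length: cytosines on restriction fragments under 80 bp had 1.90 times as many reads in siH19 as in siCon, and those on longer fragments 0.825 times. No untreated library and no measure of H19 RNA were analysed here.

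CpG islands were computed from the genome (length from 200 bp, GC content from 50%, ratio of observed to expected CpGs from 0.6). The 8 genes held 56 such islands, 20 of them with at least 5 compared cytosines, while 36 had fewer or none. A level of 30 to 70% in both libraries was found in 9 of the 20 islands, and in 24.0% of the 38624 islands tested across the genome. Islands with few cytosines reach the middle of the scale more readily, so islands with at least 30 compared cytosines were also counted, a choice made after the values were seen. Of 8 such member islands 5 were at 30 to 70%, beside 8.62% of 10777 islands in the genome, of which 70.5% were under 10% in both libraries. Of the 5, Impact island 3 and Peg13 island 1 lie at or near the DMRs described above. The others, Grb10 island 7, Kcnk9 island 4 and Rasgrf1 island 1, lie at other promoters. Plagl1 island 3 and Grb10 island 4, at or near DMRs, were outside the band.

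**Figure D1:**
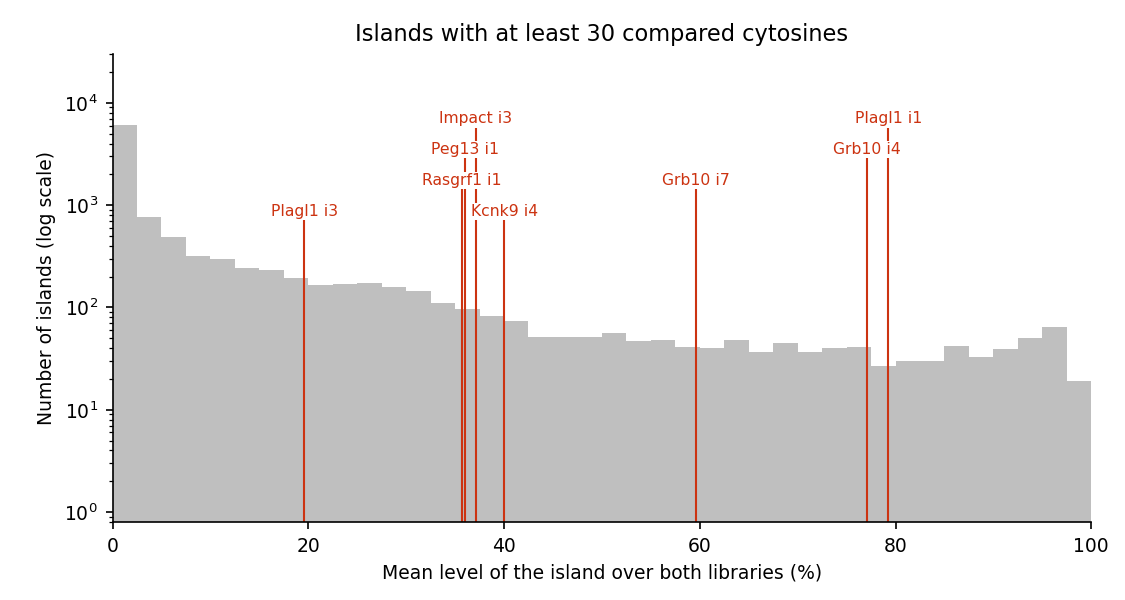
Histogram of the mean level over both libraries of every CpG island with at least 30 compared cytosines (x axis, percent; y axis, number of islands on a log scale); red lines mark the 8 member islands of that size, with "i" for island. The member lines run from Plagl1 island 3 on the left to Plagl1 island 1 on the right, and 4 of them crowd together around the middle left, whereas most of the 10777 islands lie at the left edge.

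The islands at or near the known DMRs did not share 1 level. Those of Impact and Peg13 lay inside the middle band in both libraries. Impact island 3, 1939 bp after the start, stood at 34.0% ± 10.9 (SD over 38 cytosines) in siCon and 40.2% ± 7.52 in siH19. No Impact cytosine there exceeded 50% in either library. Peg13 island 1 stood at 34.1% ± 15.8 (SD over 42 cytosines) in siCon and 38.0% ± 18.9 in siH19, with 34 of 42 cytosines between 20 and 80% in each library.

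Those of Plagl1, Grb10 and Cdh15 lay outside it. The Plagl1 promoter island (island 3, chr10:13090378-13091403) was lower, at 17.6% ± 7.57 in siCon and 21.6% ± 8.86 in siH19 over 66 cytosines, none of which exceeded 42.9%. The internal Grb10 island (island 4, chr11:12025411-12026723), 1904 bp after the nearest annotated start, was higher, at 75.1% ± 21.1 and 79.0% ± 15.5 over 58 cytosines. Cdh15 island 2 (chr8:122864687-122865442), 17098 bp after the start, was higher still, at 94.2% ± 8.84 and 90.9% ± 13.1 over 12 cytosines. This division depends on the lower limit of 30%. With a band of 35 to 65%, 4 of the 20 member islands remained: Grb10 island 7, Kcnk9 island 4 and Trappc9 islands 7 and 23. Those of Impact and Peg13 did not remain, and summed reads put Peg13 at 29.3% in siCon. The share of all tested islands in the narrower band is not given here, so no excess is read from the 4.

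Islands at other promoters of the group gave a second set of values. The Grb10 island at the main promoter (island 7, chr11:12036360-12038158) stood at 60.5% and 58.7% over 99 cytosines, with single cytosines from 0 to 100%. The Kcnk9 promoter island (island 4, chr15:72545843-72547944), with 182 cytosines the most covered, stood at 39.2% and 40.9%, and 134 of its cytosines in siCon lay between 20 and 80%. The Rasgrf1 promoter island (island 1, chr9:89908469-89911272) stood at 34.7% and 36.6% over 82 cytosines. Both islands at the Trappc9 promoter were low, with 1.56% and 0.558% in island 26 and 10.0% and 8.68% in island 25. The promoter of the host gene thus lay far below the Peg13 island. Impact island 1, with 4 cytosines at the upstream end of the annotated gene, held no methylated read among 131 in siCon and 112 in siH19. By count this allows levels of up to 2.29% and 2.68%. A read over several of the cytosines counts more than once, so these limits are too low.

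The rest of the islands lay inside genes. Plagl1 island 1 (chr10:13060840-13061322), near the upstream end of the gene, stood at 79.2% and 79.3% over 34 cytosines, against the low level of the promoter island. Grb10 island 5, next to island 4, stood at 66.8% and 64.8%. Kcnk9 island 2, in an exon far from the start, stood at 65.2% and 59.4%. Within Trappc9, islands 15 and 24 were above 90% in both libraries, island 4 was at 81.2% and 79.0%. Island 7 was at 57.1% and 61.4%, and island 23 at 62.3% and 60.5%. In siCon their cytosines ranged from 0 to 95% in island 7 and from 5.26 to 100% in island 23, so these mid-scale means did not describe single cytosines. Impact island 4, late in the gene, was at 96.6% and 97.7%.

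**Figure D2:**
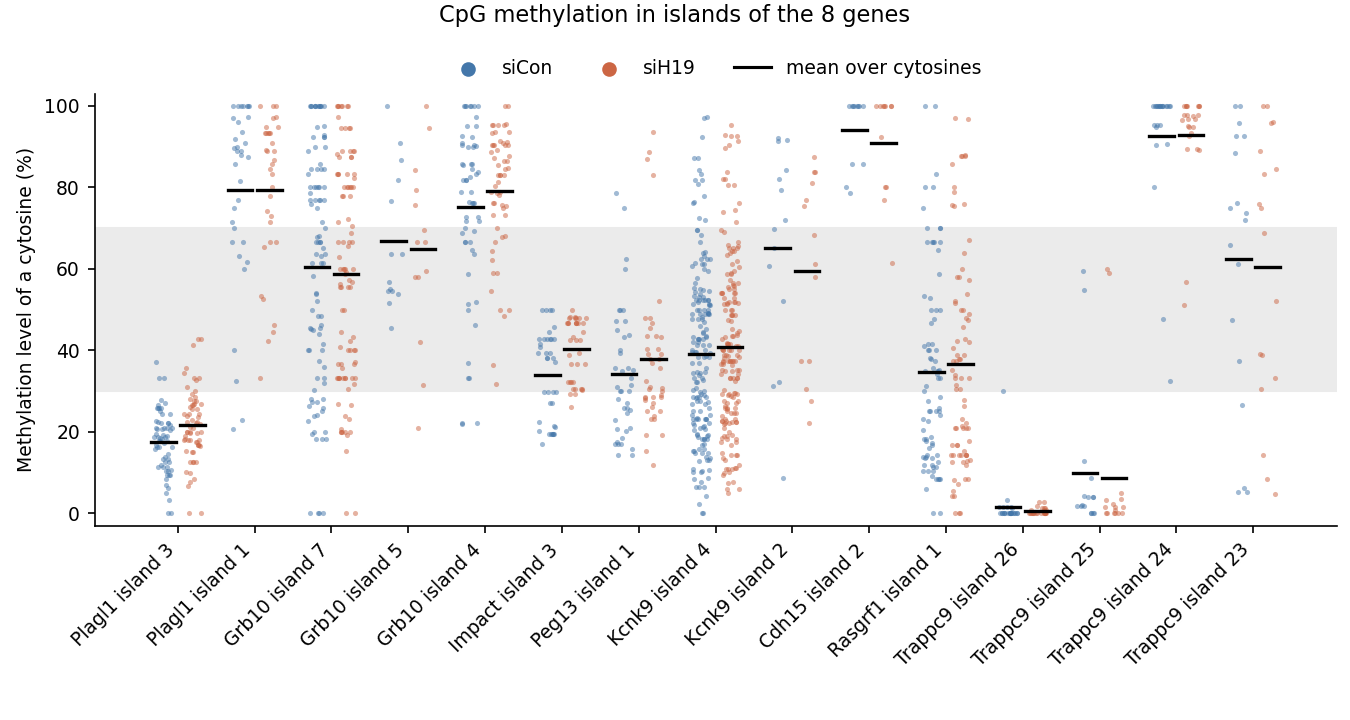
Level of every compared cytosine (y axis, percent) in the 15 member islands with at least 12 compared cytosines, siCon in blue and siH19 in orange, with a bar at the mean over cytosines; the grey band marks 30 to 70%. The Impact and Peg13 cytosines cluster around their means of 34.0% and 34.1% in siCon, while those of Grb10 island 7 run from 0 to 100%.

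Rasgrf1 has its germline DMR some distance before the gene. In the interval from 20 to 40 kb before its start, 10 cytosines were compared, with a mean of 33.8% in siCon and 33.2% in siH19. The 4 cytosines of a pair of CpGs at chr9:89878096 and chr9:89878276 lay between 50% and 87.5% in siCon and between 40% and 72.7% in siH19, and those of the CpG at chr9:89874650 were at 0% and 7.84% in siCon. The other 4, from chr9:89885821 to chr9:89885916, lay between 11.4% and 21.9% in siCon and between 12.5% and 33.3% in siH19. The interval was chosen by distance alone and was not tested as a region. The start of Cdh15 was not measured: its window of 1 kb each side held no cytosine with a read in either library. Impact had 18 reads in siCon and 12 in siH19 over its start window, too few for any cytosine to be compared. Islands outside the genes but within 200 kb were counted by the same band of 30 to 70% in both libraries, which held 24.0% of all tested islands. Of 5 such islands around Impact and 8 around Rasgrf1, 0 were in it. It held 2 of 10 around Plagl1, 2 of 5 around Grb10 and 2 of 17 around Cdh15. Around Trappc9 it held 1 of 9 and around Kcnk9 1 of 2, the same island in both. One island near Cdh15 (chr8:122769283-122769606) went from 25.8% to 4.58%, a difference of -21.3 points with an adjusted p of 0.00962 by the exact stratified test described next, and lies outside the gene.

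The motif bound by ZFP57 (TGCCGC on either strand, both orientations counted) was searched in 1000 bp centred on each tested island. At least 1 match was present in 34.4% of all tested islands. Plagl1 island 3 held 6 matches, and 0.153% of tested islands held as many. Peg13 island 1 held 5, a number reached by 0.425%, and Grb10 islands 4 and 7 held 4 each, reached by 1.27%. Impact island 3 and Cdh15 island 2 held 2 each, reached by 11.2%. Kcnk9 island 4, Trappc9 island 23 and Impact island 4 held 1 each, reached by 34.4%. Rasgrf1 island 1 and all other tested member islands held 0, among them Plagl1 island 1, Grb10 island 5 and Kcnk9 island 2. Among islands with at least 30 compared cytosines 60.3% held a match, and the shares with as many were 0.455% for Plagl1 island 3, 1.36% for Peg13, 3.96% for the Grb10 islands and 26.97% for Impact. These are matches of letters and not measured binding.

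The comparison of the libraries asked whether knockdown of H19 was accompanied by other methylation in these genes. Each region was tested by an exact test in which every cytosine is its own stratum, so that a library with more reads on 1 fragment cannot move the region by that alone, and p-values were adjusted by the Benjamini-Hochberg method over all regions of the genome. Reads that cover several cytosines count more than once, so the p-values are too small and the intervals over a region are too narrow. A region was called at an adjusted p under 0.05 with a difference of at least 10 percentage points. Of the 20 member islands 0 were called, beside 1.06% of all tested islands. Of the 6 genes with a testable start window 0 were called, beside 0.626% of all genes, and of the 8 gene bodies 0, beside 0.352%. Without the minimum difference, 3 islands, 1 start window and 3 bodies had an adjusted p under 0.05, beside 3.87%, 6.79% and 3.48% of all regions of each kind.

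Among islands, 11 of the 20 were higher in siH19 and 9 lower, with a median difference of 0.520 points, beside a median of 0.115 points and 53.6% higher over all tested islands. The 3 islands past the threshold were those of Plagl1, Impact and Kcnk9, all higher in siH19, and 2.55% of tested islands were past it in that direction. Among 2851 islands with at least 30 cytosines and 10 to 90% methylation in both libraries 7.75% were past it in that direction, and 61.4% were higher. All 8 member islands of that size had such levels. Of these 7 were higher, with a median difference of 3.31 points, beside 0.546 points for the 2851. Start windows of marker genes that are no members were also higher in siH19, in 6 of 6 muscle markers (median 1.15 points) and in 3 of 3 tested markers of other cells (median 3.46 points), with 0 of either past the adjusted threshold. Cd3e, a marker of other cells with 3 compared cytosines and no test, was at -2.78 points. Of the factors that set or keep imprints 5 were higher and 5 lower. Family relatives of the members were 7 and 6, and other imprinted genes 19 and 11. Over all tested start windows 11231 were higher and 9024 lower, with a median difference of 0.0932 points. Whether the members' differences share in a general shift was not tested.

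The largest of the 3 differences was in Impact island 3 (chr18:12973079-12974645). It was higher in siH19 by 7.38 points (95% counting interval 3.94 to 10.8, exact stratified test with Benjamini-Hochberg adjustment, adjusted p = 0.00358). Of its 38 cytosines 28 were higher and 10 lower. Summed reads gave 32.7% (Wilson 95% interval 30.4 to 35.1) in siCon and 40.4% (37.8 to 43.0) in siH19, from 1580 and 1367 reads. In such sums a read counts once for each cytosine it covers, so the Wilson intervals of regions are too narrow. With the variance scaled by the spread between cytosines, the adjusted p was 0.0356. The body of Impact, which contains the island, was higher by 5.97 points.

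The promoter island of Plagl1 was higher in siH19 by 4.20 points (2.23 to 6.17, adjusted p = 0.00376 by the same exact stratified test). Of its 66 cytosines 40 were higher and 23 lower. Summed reads gave 17.7% (Wilson 16.4 to 19.1) of 2934 reads in siCon and 22.01% (20.7 to 23.4) of 3735 in siH19. The start window of Plagl1 held the same 66 cytosines, and its body was higher by 3.08 points, against 0.120 points in summed reads. Plagl1 island 1 did not differ beyond counting error, with -0.916 points (-4.15 to 2.32).

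The promoter island of Kcnk9 was higher by 2.77 points (1.42 to 4.11, adjusted p = 0.00613 by the exact stratified test), with 81 of 182 cytosines lower and the rest higher. With the variance scaled by the spread between cytosines, the Plagl1 and Kcnk9 islands did not pass, at adjusted p of 0.0787 and 0.121. Leaving out the deepest 1% of cytosines brought the Kcnk9 difference to 1.18 points, with an adjusted p of 0.492 by the exact stratified test.

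Each of these 3 differences lay mainly on 1 DNA strand. In Impact island 3 the minus strand was higher by 12.5 points (8.09 to 16.9) and the plus strand by 0.223 points (-5.30 to 5.75). On the minus strand alone this was the 1 member island called, beside 1.23% of all islands tested on that strand, and the bodies of Impact and Cdh15 were the 2 called, beside 0.532% of all bodies. In Plagl1 island 3 the plus strand was higher by 8.08 points (5.26 to 10.9) and the minus strand by 0.647 (-2.10 to 3.39). In Kcnk9 island 4 the minus strand was higher by 5.07 points (3.13 to 7.02) and the plus strand by 0.474 (-1.38 to 2.32). The plus and minus strands of Impact island 3 stood at 41.2% and 28.7% in siCon and at 39.9% and 40.4% in siH19. Those of Plagl1 island 3 stood at 15.4% and 19.7% in siCon and at 21.7% and 21.5% in siH19. Those of Kcnk9 island 4 stood at 40.9% and 37.7% in siCon and at 39.9% and 41.7% in siH19. Methylation of a CpG is usually found on both strands, which are read here from separate bisulfite-converted molecules. The gap between strands was not tested beyond these intervals, which do not overlap within any of the 3 islands. The intervals are too narrow, because reads over several cytosines count more than once.

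**Figure D3:**
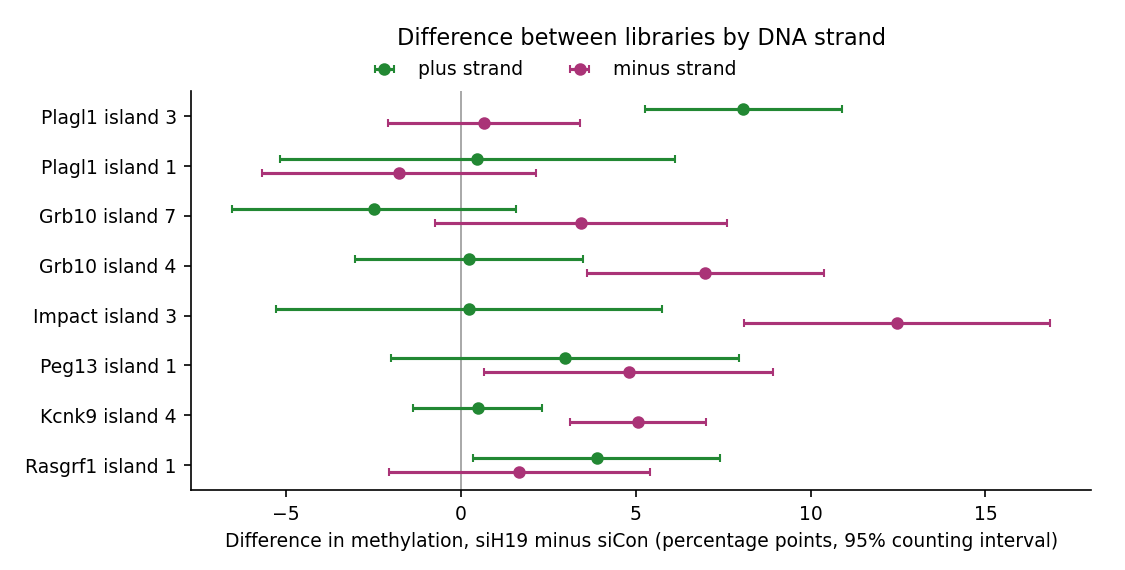
Difference in methylation, siH19 minus siCon, in percentage points with 95% counting intervals, for plus-strand cytosines (green) and minus-strand cytosines (purple) of the 8 member islands with at least 30 compared cytosines. In Plagl1 island 3 the plus strand stands at 8.08 points and the minus strand at 0.647, and in Impact island 3 the minus strand stands at 12.5 points and the plus strand at 0.223.

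Grb10, Peg13 and Rasgrf1 were also higher in siH19 but did not pass the adjusted test. Grb10 island 4 was higher by 3.78 points (1.42 to 6.14, adjusted p = 0.0531 by the exact stratified test), with 6.99 points on the minus strand and 0.232 on the plus strand. Peg13 island 1 was higher by 4.09 points (0.904 to 7.27, adjusted p = 0.140 by the exact stratified test), with 31 of 42 cytosines higher. Rasgrf1 island 1 was higher by 2.84 points (0.276 to 5.41, adjusted p = 0.271 by the exact stratified test). Grb10 island 7, at the main promoter, differed by 0.556 points (-2.36 to 3.47).

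Among the islands inside genes, Kcnk9 island 2 was lower by -4.95 points (-10.9 to 1.00). Trappc9 island 18, in an intron, went from 83.9% to 73.6% over 8 cytosines, with a difference of -11.7 points (-20.4 to -2.98) and an adjusted p of 0.197 by the exact stratified test. Its minus strand was at -23.5 points and its plus strand at 2.65. Cdh15 island 2 differed by -3.52 points (-10.3 to 3.24) on 113 and 106 reads. At that depth a difference of a few points could not be detected.

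Reads summed over an island gave other differences than the same cytosines did. The gap was at least 3.5 points in Rasgrf1 island 1, Peg13 island 1 and Grb10 island 4, and in 16.9% of the 2851 larger mid-scale islands of the genome. The Rasgrf1 island went from 30.5% (Wilson 28.5 to 32.7) of 1853 reads to 44.8% (42.9 to 46.7) of 2631, and the Peg13 island from 29.3% (27.3 to 31.3) of 1927 reads to 40.4% (38.1 to 42.8) of 1642. Grb10 island 4 went from 74.7% to 82.3%. With Fisher's exact test on summed reads, the Rasgrf1 and Peg13 islands were the 2 member islands called, beside 2.71% of all tested islands by that test. The Kcnk9 promoter island was higher by 1.15 points in summed reads, with an adjusted p of 0.418 by that test. The reads of the libraries were spread differently over the fragments of these islands. In Rasgrf1 the fragment of 63 bp at 69.4% and 78.2% took 11.2% of the island's reads in siCon and 28.3% in siH19. In Peg13 the fragment of 66 bp at 53.1% and 55.3% took 11.4% and 30.0%, while that of 122 bp at 18.4% and 25.4% took 28.3% and 11.4%. A gap of at least 7 points between the summed and the cytosine-by-cytosine difference, as in Peg13 and Rasgrf1, was present in 3.61% of the 2851 islands.

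**Figure D4:**
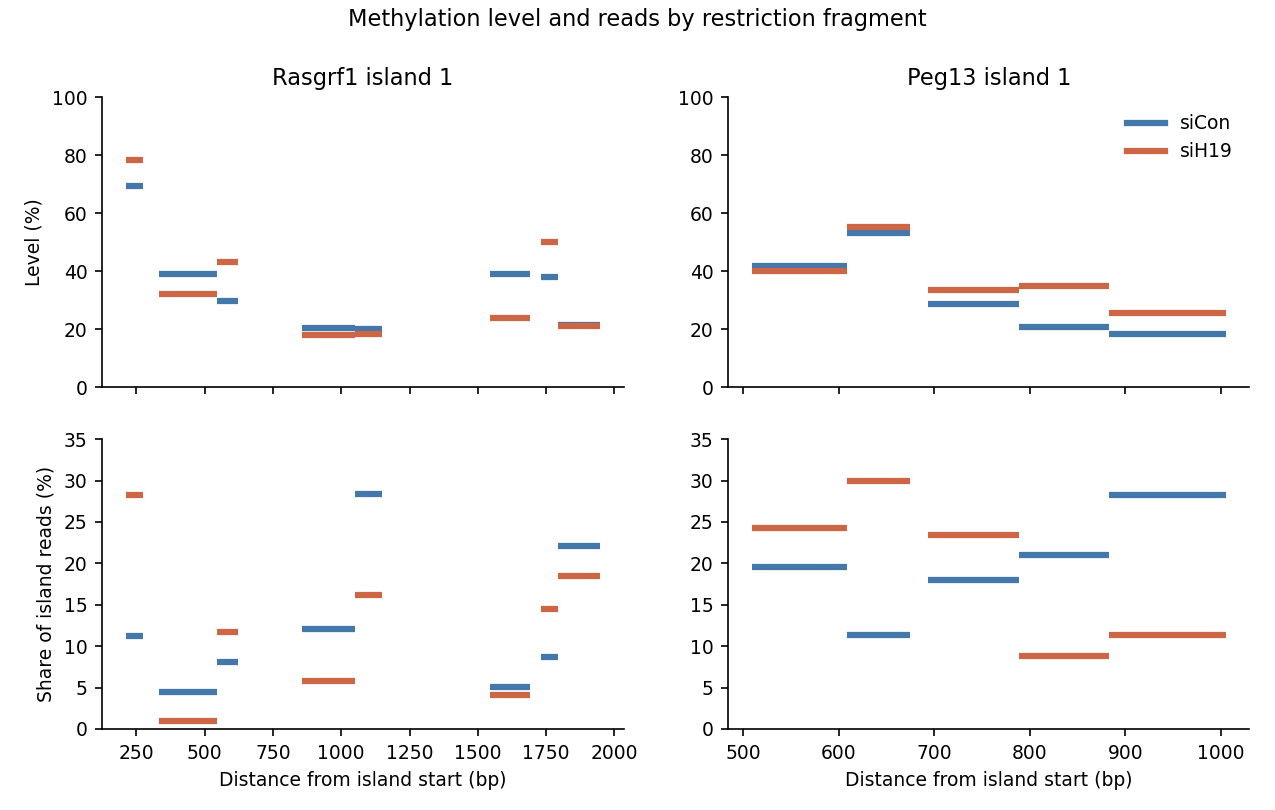
Mean level of the cytosines (upper panels, percent) and share of the island's reads (lower panels, percent) for each restriction fragment with at least 3 compared cytosines in the Rasgrf1 and Peg13 islands, by distance from the island start in bp, siCon in blue and siH19 in orange. The Rasgrf1 fragment with the highest level, 69.4% in siCon, rises from 11.2% to 28.3% of the reads.

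This shift followed fragment length. All 21 member fragments under 80 bp had more reads in siH19, with a median ratio of siH19 to siCon reads of 2.13, while 20 of 45 longer ones did, with a median ratio of 0.938. The shorter fragments had a median level difference of 2.29 points, with 12 of 21 higher in siH19, and the longer ones of -1.29 points, with 19 of 45 higher. Over all compared cytosines of the genome, not grouped by fragment, the level difference was 0.447 points under 80 bp and 0.162 on longer fragments. The share of all fragments that were higher is not given here. On fragments of at least 80 bp alone, an alternative chosen after the data were seen, the Rasgrf1 island was at -1.86 points, with the direction turned. Under the same restriction the Plagl1 island was higher by 8.69 points, the Peg13 island by 4.35, the Kcnk9 island by 2.28 (adjusted p = 0.134 by the exact stratified test) and the Impact island by 7.20 (adjusted p = 0.0768). The part of fragment length in the differences was not tested further.

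**Figure D5:**
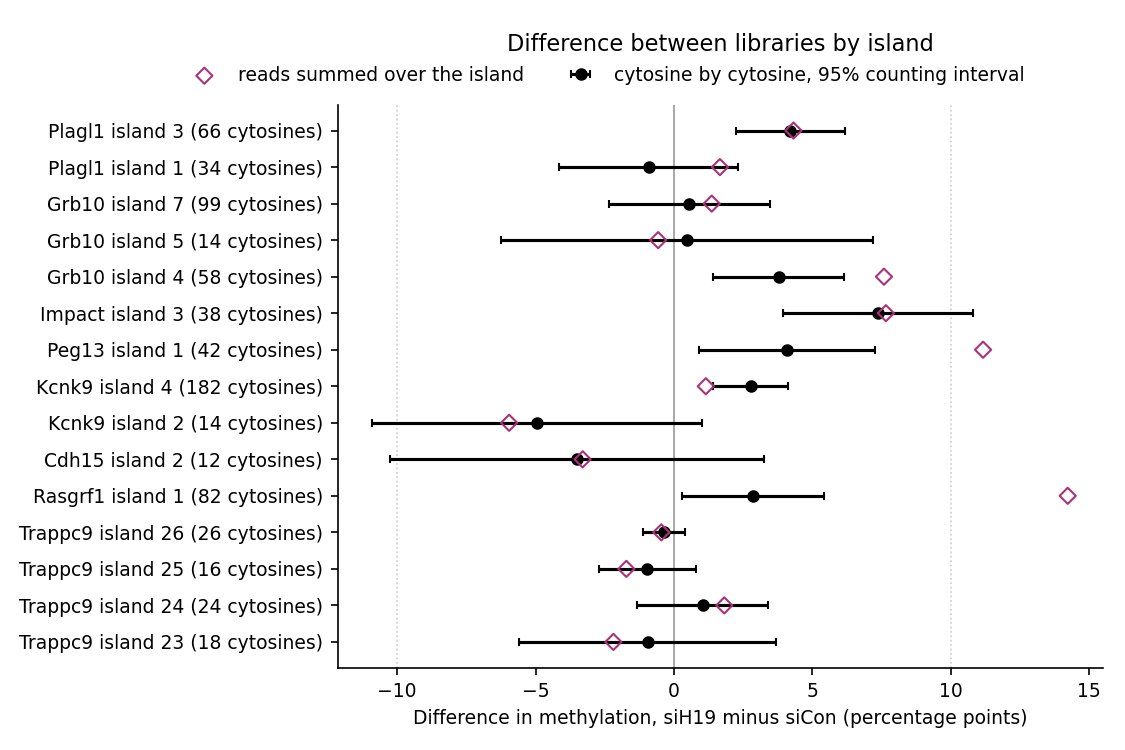
Difference in methylation, siH19 minus siCon, in percentage points for the 15 member islands with at least 12 compared cytosines; black points compare the same cytosines, with 95% counting intervals, and open diamonds compare reads summed over the island. The diamonds leave the interval furthest in Rasgrf1 island 1 and Peg13 island 1, and dotted lines mark the 10 points that a call requires.

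Of the gene bodies with an adjusted p under 0.05, that of Cdh15 alone was lower in siH19. The Rasgrf1 and Kcnk9 bodies were also lower, with differences of -1.69 and -0.957 points that did not pass the adjusted test. Cdh15 went from 82.2% in siCon to 76.2% in siH19 over 25 cytosines, and the difference was -7.86 points (-12.3 to -3.46, adjusted p = 0.0439 by the exact stratified test). Of the cytosines 10 were lower and 2 higher. With the variance scaled by the spread between cytosines, the adjusted p was 0.219. With restriction-site cytosines kept, the difference was -3.30 points and the adjusted p 0.204 by the exact stratified test. The most changed CpG lies in an exon just before island 2. Its minus-strand cytosine, chr8:122864555, was methylated in 27 of 42 reads in siCon (64.3%, Wilson 49.2 to 77.0) and in 5 of 25 in siH19 (20%, 8.86 to 39.1), with a Fisher exact p of 0.00083. The plus-strand cytosine of that CpG was at 53.8% and 50%. That CpG was then left out, because it was the most changed and after the data were seen. Without it the body did not differ beyond counting error, at -3.93 points (-8.00 to 0.139, adjusted p = 0.431 by the exact stratified test).

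Along Cdh15 the compared cytosines fell into a few groups. A CpG in an early intron, chr8:122851872, had 0 of 37 reads methylated on its plus strand in siCon, which allows up to 8.11%, and 1 of 41 in siH19. On the minus strand it had 0 of 33 and 0 of 41, which allow up to 9.09% and 7.32%. Further into the gene 3 plus-strand cytosines had 14 reads in each library, and stood between 50% and 78.6% in siCon and between 21.4% and 78.6% in siH19. A group of 5 minus-strand cytosines had 5 reads in siCon and 6 in siH19, with no unmethylated read in siCon and 1 in siH19. In island 2 the lowest cytosine was at 78.6% in siCon and at 61.5% in siH19, and each of its 6 minus-strand cytosines had 5 reads in each library. The early intron CpG thus stood apart from the other Cdh15 cytosines.

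At single cytosines, a change was called strong at a Fisher exact p under 0.05 and at least 33 points. Of the 1088 member cytosines 15 were strongly changed (1.38%), beside 0.986% of all cytosines compared, and 9 were higher in siH19, the direction of 0.519% of all cytosines. None of the 15 had an adjusted p under 0.05, the lowest being 0.369 (Fisher's exact test with Benjamini-Hochberg adjustment). The other strand of the CpG was compared for 13 of them. It moved the same way in 9 and the opposite way in 3, by at most 14.04 points, so that in 0 of 13 did both strands pass 33 points.

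Trappc9 held 6 strongly changed cytosines of 397 compared (1.51%) and Rasgrf1 held 6 of 118 (5.08%), beside the 0.986% of all cytosines, while Grb10, Peg13, Kcnk9 and Cdh15 held 1 each, and Plagl1 and Impact held none. The Peg13 cytosine is also counted in Trappc9. Of the 6 in Rasgrf1, 3 were higher in siH19 and 3 lower, and of the 6 in Trappc9, 5 were higher and 1 lower. The share over all cytosines is not matched to these genes for level or depth. In Rasgrf1 the strongest was chr9:89973815, in an intron within a repeat, with 6 of 6 reads methylated in siCon and 0 of 9 in siH19. Its Fisher exact p was 0.0002, and the other strand was at 0% in both libraries. The Grb10 one lies in island 4, at chr11:12025556, with 33.3% of 18 reads and 75.4% of 57. The Peg13 one, chr15:72809756, went from 60.0% of 15 reads to 93.5% of 46. The strongest in Trappc9, chr15:72982401, in an intron, went from 12.2% of 41 reads to 61.5% of 13. In Kcnk9, chr15:72512157 in island 2 went from 65.2% of 23 reads to 22.2% of 9. All of these rest on fewer than 60 reads in a library. The 3 higher Rasgrf1 cytosines and those of Grb10 and Peg13 lie on fragments of 60 to 66 bp, which had more reads in siH19. On fragments of at least 80 bp alone, 9 of the 15 strongly changed member cytosines remained.

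One member cytosine had an adjusted p under 0.05 with a smaller difference. The share of all compared cytosines past that threshold is not given here, so no excess is read from this cytosine. It was chr15:72547733 on the plus strand of the Kcnk9 promoter island, inside the fragment printed above. That fragment is 69 bp long and had 1.98 times as many reads per cytosine in siH19 as in siCon. It was methylated in 2 of 91 reads in siCon (2.20%, Wilson 0.605 to 7.66) and in 41 of 182 in siH19 (22.5%, 17.1 to 29.1), with an adjusted p of 0.0388 by Fisher's exact test with Benjamini-Hochberg adjustment. Its minus-strand partner was at 15.8% and 24.6%.

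Related genes were read by their start windows. Of 30 other imprinted genes with a testable window 19 were at 30 to 70% in both libraries (63.3%), beside 14.1% of 20297 genes. Peg10 and Sgce share 1 window of cytosines, as do Snrpn and Snurf, and over the 28 distinct windows 17 were at that level (60.7%). Among them Copg2 was lowest with 0.0962% in siCon, followed by Herc3 with 1.28%. Nnat was highest with 97.3%, followed by Magel2 with 66.9%. In this list 3 windows were higher and 1 lower in siH19 with an adjusted p under 0.05, beside 6.79% of all start windows past that threshold in either direction. Of 13 family relatives 3 were at 30 to 70%, and Plagl2 and Cdh2 were lowest in siCon with 0.367% and 0.387%, while Cdh4 was highest with 74.3%. Here 2 of 13 windows were higher and 0 lower with an adjusted p under 0.05, beside the same 6.79%. Of 10 factors that set or keep imprints 7 were under 10% in both libraries, beside 56.6% of all genes. They ranged in siCon from Trim28 with 0.369% to Dnmt3l with 37.4% and Dppa3 with 49.1%, and 0 had an adjusted p under 0.05 by the exact stratified test.

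Muscle markers were read in the same way as a description of the cells, since methylation does not give RNA. The start windows of Mylpf, Ckm and Des were at 0.286%, 3.33% and 3.89% in siCon, Acta1 at 11.7%, Myod1 at 37.7% and Myog at 80.5% over 6 cytosines. Of markers of other cells, Krt5 was at 6.29% in siCon and 7.86% in siH19, Pou5f1 at 44.1% and 55.6%, and Gfap at 78.9% and 83.3%. Myod1 stood at 38.5% in siH19, with a difference of 3.78 points (0.410 to 7.15), that of Pou5f1 was 13.1 (3.29 to 22.8) and that of Gfap 3.46 (1.16 to 5.76).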

How the data were processed

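Reduced representation bisulfite libraries were made from DNA cut with TaqαI and MspI. The authors aligned reads with Bismark in non-directional mode within a service provider's pipeline and trimmed filled-in bases when calling methylation. The submitters' processing notes name bcl2fastq 1.8.4 and build mm10. The deposited files gave, for each cytosine, raw read counts written as text (methylated over total, a unit of other kind) and a score, the methylated share times 1000, which was used only to check the parsing. Duplicate removal was not stated.

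Every deposited position used was a CpG cytosine in GRCm38. Genes were those of GENCODE vM21, basic transcripts, and islands were computed from that genome. Tests were written in Python 3.11.15 with numpy 2.4.6, scipy 1.17.1 and numba 0.67.0: Fisher's exact test per cytosine and an exact Cochran-Mantel-Haenszel test per region with at least 5 cytosines, two-sided. Differences weight each cytosine by its reads in both libraries. Intervals and limits take in counting error alone, because PCR copies could not be told from separate molecules. Over a region the intervals are also too narrow and the limits too low, since a read counts once for each cytosine it covers. On simulated data at the real depths, 71.5% of 200 islands changed by 15 points were called among 38624 tested. Of 38424 unchanged islands 0 were called, and 77.0% of 200 cytosines changed by 50 points were recovered. By the exact stratified test 4.01% of the unchanged islands had a p under 0.05, so the simulated p-values were not too small. Reads that cover several cytosines make the real p-values too small, so the 0 gives no rate of false calls in these libraries. The 71.5% and 77.0% apply to the islands and cytosines that were changed and need not hold at other sizes or levels. Named cytosines are the strongly changed one with the lowest p per gene. The members, lists and tests were chosen with earlier results of these data known. Alternatives covered read minimums, strands, sites, repeats, depth, island criteria, windows and tests.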

Additional observations from a re-analysis of the deposited data

How the results depend on the processing

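No paired analysis was possible because each group had 1 library. Of 412 differences recomputed over 34 regions and 16 settings, 340 kept direction and side of the threshold, 22 lost the threshold, 16 passed it and 34 turned direction; where a change is listed here, the cause was not tested. Among the regions with an adjusted p under 0.05, the Impact body lost it on fragments of at least 80 bp (5.08 points) and on the plus strand (0.128), and the Plagl1 body with at least 20 reads (2.79), summed reads (0.120) or scaled variance. The Cdh15 body lost it with at least 10 reads (-8.84), restriction-site cytosines (-3.30), the plus strand (-4.83), longer fragments (-8.06), summed reads (-5.77) or scaled variance. The Kcnk9 island lost it without the deepest 1% (1.18), with summed reads (1.15) or scaled variance, on the plus strand (0.474) and on longer fragments (2.28), the Plagl1 island with scaled variance and on the minus strand (0.647), its start window on that strand, and the Impact island on the plus strand (0.223) and on longer fragments (7.20). At least 20 reads turned the Trappc9 island 7 difference to -0.187 points, the Rasgrf1 body to 0.789 and the Kcnk9 body to 0.480, with 5 strongly changed cytosines. Keeping restriction-site cytosines turned Grb10 island 5 to -0.887, Impact island 4 to -0.707, Trappc9 islands 24 and 26 to -0.104 and 0.444, the Rasgrf1 body to 0.0282 and the Kcnk9 body to 0.620, with 23 such cytosines. The plus strand alone turned Plagl1 island 1 to 0.466, Grb10 island 5 to -8.54, Grb10 island 7 and start windows to -2.49, Trappc9 island 25 to 0.187, the Kcnk9 start window to -0.788 and the Grb10 and Kcnk9 bodies to -1.46 and 0.758, with 6 such cytosines. The minus strand alone turned Kcnk9 island 2 to 1.90, Trappc9 islands 23 and 26 to 0.578 and 0.245 and the Plagl1 and Rasgrf1 bodies to -0.0361 and 0.532; it gave 1 island and 2 bodies called, 9 such cytosines and a median island level of 57.4% in siCon. Summed strands turned Grb10 island 5 to -0.456, with 6 such cytosines. Fragments of at least 80 bp, chosen after seeing the data, turned Rasgrf1 island 1 to -1.86, its start window to -1.65 and Trappc9 island 26 to 0.360, with 9 such cytosines. Fisher's test on summed reads turned Plagl1 island 1 to 1.66, Grb10 island 5 to -0.570 and the Kcnk9 and Trappc9 bodies to 3.97 and -1.78; it called 2 islands, 1 start window and 1 body. With no minimum difference 3 islands, 1 start window and 3 bodies passed. Unweighted differences turned Plagl1 island 1 to 0.0497, Grb10 island 5 to -2.06 and Grb10 island 7 and start windows to -1.75. A minimum of 20 points gave 43 such cytosines, and an adjusted p under 0.05 gave 1. Stricter islands gave a median level of 49.8% over 10 islands. A band of 35 to 65% left 4 islands, with no share over all islands given. Depth limited Cdh15, with 113 and 106 reads in its island and no read at its start, and the start of Impact.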
